A study of Rattus norvegicus with 24 samples.

Results

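The genes described here are the fibrillar collagen genes Col1a1 (ENSRNOG00000003897), Col1a2 (ENSRNOG00000011292) and Col3a1 (ENSRNOG00000003357), and the intermediate filament gene Vim (ENSRNOG00000018087), measured in rat liver. They were chosen by these 4 Ensembl gene IDs out of the 18056 IDs of the deposited tables. All 4 IDs were found, and all 4 passed the filter on low counts in every fit. The symbols came with the choice of the members, because the files hold IDs only, and the reference table named 0 of the 18056 IDs. For the same reason no other matrix, TGF-beta or cell type marker gene could be named, and the labelled tissue could not be checked against its markers.

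Fibrillar collagens are secreted as triple helices and assemble into the tensile fibres of connective tissue. Type I collagen is built from the chains encoded by Col1a1 and Col1a2, and type III collagen from the chain encoded by Col3a1. In liver these fibres lie mainly in portal tracts, vessel walls and the capsule, and their genes are transcribed by stellate cells and portal fibroblasts rather than by hepatocytes. Vimentin, the product of Vim, is an intermediate filament protein of mesenchymal cells, endothelium and leukocytes. All 4 genes are widely used as readouts of hepatic stellate cell activation and fibrosis. In whole-liver RNA, fewer cells of a type and less RNA per cell cannot be told apart.

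The 24 livers form 4 groups of 6 animals, named by a genotype label that reads Male or Female and a treatment label that reads Air + Ozone or Ozone + Ozone. The first word of the treatment is what the dam breathed for 4 hours on each of gestation days 5 and 6, either filtered air or ozone at 0.8 ppm, with 12 dams per exposure. The second is what the offspring received: all 24 animals breathed ozone once a week from postnatal week 5, first at 0.4 ppm and then, in weeks 6 and 7, at 0.8 ppm, and their livers were taken near postnatal day 48. Animals are called air-dam or ozone-dam males and females after their dams. No group without ozone after birth is analysed here, and the sources used here give neither the strain nor the litter of an animal. Littermates within a group would make the p-values too small.

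Library totals ran from 8462290 to 14564700 counts in 23 of the libraries and reached 36232100 in the last, rat 72 (Female, Ozone + Ozone). Levels are given as CPM, the usual depth-scaled count, here with library totals corrected by TMM factors, and 3 counts correspond to 0.0858 to 0.349 CPM. The 4 genes lay far above that limit, with a lowest count of 58 for Col1a1, 115 for Col1a2, 2203 for Col3a1 and 259 for Vim. CPM is not divided by gene length, so the 4 levels are not compared with each other. The libraries carry 2 forms of name, taken as library sets 1 and 2, with 3 and 3 libraries in each Air + Ozone group and 2 and 4 in each Ozone + Ozone group. Each group has its own range of rat numbers, so an effect of their order and one of the group cannot be told apart.

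The RefSeq promoter table matched 2 of the 4 members, Col1a2 and Vim, and did not match Col1a1 and Col3a1. The 2 matched promoters are shown for their sequence elements. Each run covers 250 bases before to 50 after the RefSeq gene start in build GRCr8, whereas the build in the submitters' processing notes is rn6. Col1a2 lies at chr4:33518307-33518606 and Vim at chr17:81577011-81577310, both on the plus strand. Capitals mark the matches, on either strand, to the 5 motifs described after the sequences.
Col1a2: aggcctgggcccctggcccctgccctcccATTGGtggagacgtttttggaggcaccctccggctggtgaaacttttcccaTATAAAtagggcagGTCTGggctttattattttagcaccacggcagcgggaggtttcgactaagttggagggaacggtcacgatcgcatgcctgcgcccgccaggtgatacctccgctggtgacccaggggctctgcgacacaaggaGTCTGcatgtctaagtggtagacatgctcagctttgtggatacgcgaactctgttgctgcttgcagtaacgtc
Vim: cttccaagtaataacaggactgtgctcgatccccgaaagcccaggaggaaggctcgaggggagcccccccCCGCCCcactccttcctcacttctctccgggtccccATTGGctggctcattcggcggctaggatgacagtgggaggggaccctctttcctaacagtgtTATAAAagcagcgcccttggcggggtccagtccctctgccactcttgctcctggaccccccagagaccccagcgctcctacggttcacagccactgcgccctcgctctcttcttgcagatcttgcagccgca

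Both promoters held 1 CCAAT on the minus strand, its first base 221 bases before the start in Col1a2 and 144 before it in Vim. Of 33469 RefSeq promoters of 300 bases, 37.5% held this motif. Both also held 1 TATAAA on the plus strand, 170 and 82 bases before the start, a motif found in 14.2% of promoters. CAGAC occurred at 2 places in Col1a2, both on the minus strand, against 50.1% of promoters with at least 1. GGGCGG occurred at 1 place in Vim on the minus strand, against 33.1% of promoters. TGANTCA, which 7.33% of promoters held, was in neither window. In Col1a2 the bases from the given start onward begin with ATG and run to the end of the window without a stop codon. That start may thus be the start of translation and not of transcription, which was not tested. The distances are therefore not compared between the windows. These matches describe the letters and are not evidence of binding.

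Transcripts of Col1a1 and Col3a1 were higher in the livers of males than in those of females, 1.73-fold and 1.30-fold when averaged over dam groups. The averaged difference of Col1a2, 1.27-fold, did not pass the test, and no difference between genes was tested. This average was added after the data had been seen, and it called 2 of the 4 members and 45.6% of 12854 genes. Maternal ozone left no collagen difference that passed the test in either sex. Vim was the only member called for maternal ozone, 1.33-fold higher in ozone-dam males, where 21.3% of 12541 genes were called. That call of Vim was kept with other tools and scalings and lost under several other settings. Whether the maternal difference of Vim itself differs between the sexes was tested and did not pass.

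**Figure D1:**
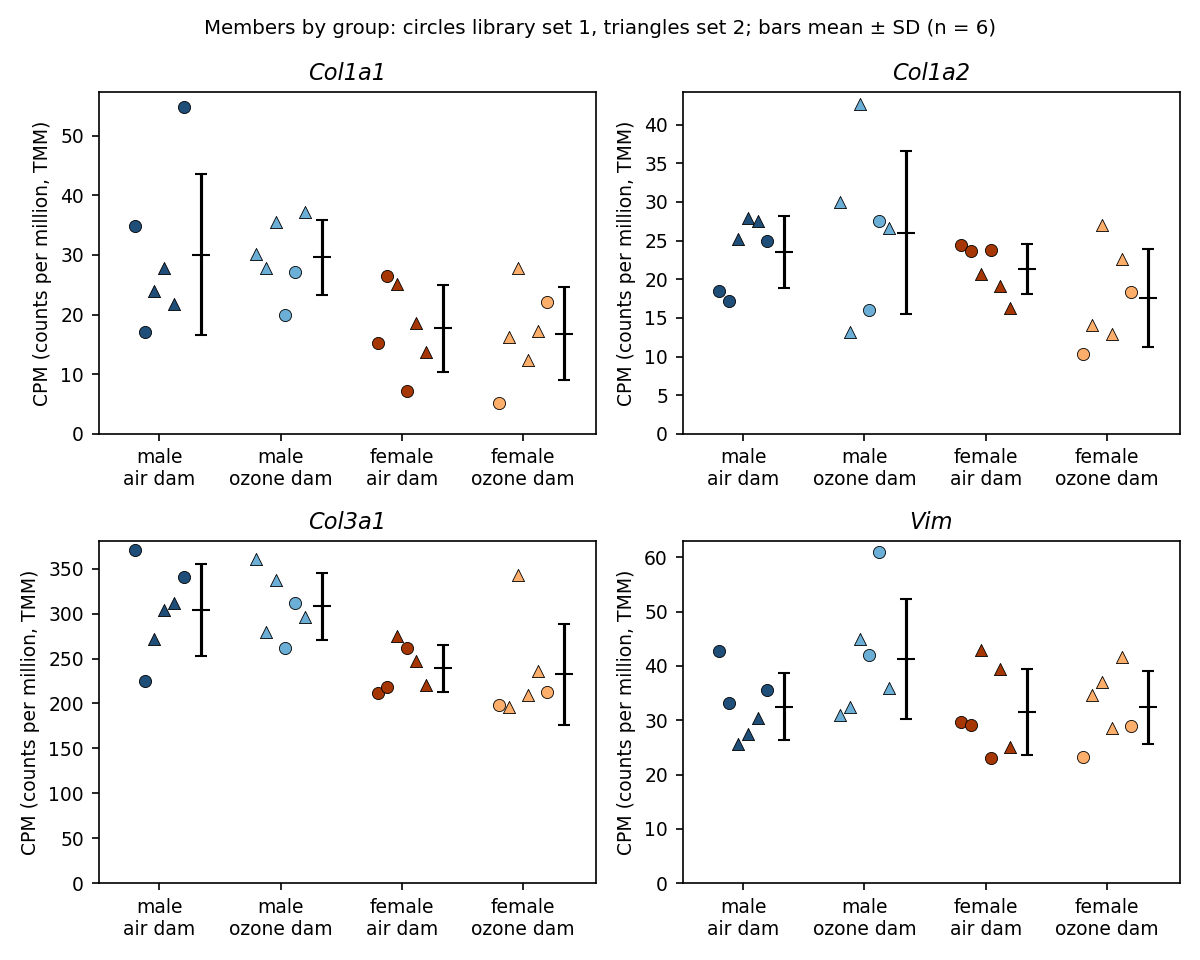
Level of each gene in every library, in CPM (linear axes from 0), by group. Circles are library set 1, triangles set 2, and bars show mean ± SD (n = 6). All 12 males lie above the female median of Col1a1 (16.7 CPM) and of Col3a1 (219 CPM).

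Col1a1, which encodes the more abundant chain of type I collagen, had the widest spread of the members. In air-dam males it ran from 17.1 CPM (rat 39) through a median of 25.9 to 54.8 CPM (rat 48). In ozone-dam males it ran from 19.9 (rat 95) through 28.99 to 37.1 CPM (rat 97). The male groups overlapped almost wholly, with only rat 39 below and rat 48 above the range of the ozone group.

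In air-dam females, Col1a1 ran from 7.23 CPM (rat 18) through 16.9 to 26.5 CPM (rat 16). In ozone-dam females it ran from 5.21 (rat 63) through 16.7 to 27.9 CPM (rat 66). Of the 12 females, 6 lay below the lowest male and only 1 lay above the male median of 27.7 CPM.

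The group means of Col1a1 were, in descending order, 30.03 ± 13.5 CPM in air-dam males and 29.6 ± 6.27 in ozone-dam males. Females followed with 17.7 ± 7.28 for air-exposed and 16.8 ± 7.82 for ozone-exposed dams (SD, n = 6 each). Neighbours of the same sex differed by far less than their SD, while the step between the sexes was wider than the SD of either neighbouring group.

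The edgeR test gave Col1a1 a male-minus-female log2 fold change of 0.79 ± 0.24 SE when averaged over dam groups (adjusted p = 0.0107), that is, 1.73-fold with a 95% interval from 1.22 to 2.44. This average was chosen after the values within dam groups had been seen. Within dam groups the differences were 0.77 ± 0.34 for air-exposed dams (adjusted p = 0.0640) and 0.81 ± 0.34 for ozone-exposed dams (adjusted p = 0.197), neither of which passed. The former passed with DESeq2 (0.77, adjusted p = 0.0305) and in edgeR without rat 39, 16 or 63 (adjusted p from 0.0301 to 0.0422). The averaged call held with each of the 24 libraries left out in turn (adjusted p from 0.00518 to 0.0214). In library set 1 alone the difference was 0.94 (adjusted p = 0.303) and in set 2 alone 0.59 (adjusted p = 0.0121).

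Col3a1 encodes the single chain of type III collagen and was the most evenly expressed of the 3 collagens between animals. In air-dam males it ran from 225 CPM (rat 39) through 308 to 371 CPM (rat 37). In ozone-dam males it ran from 261 (rat 95) through 304 to 361 CPM (rat 87). The 2 male groups covered nearly the same range.

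In air-dam females, Col3a1 ran from 212 CPM (rat 15) through 234 to 276 CPM (rat 17). In ozone-dam females it ran from 196 (rat 65) through 211 to 343 CPM (rat 66), with the second highest animal at 236 CPM. Rat 66 was thus alone among the females in reaching the upper range of the males, and 7 of the 12 females lay below the lowest male.

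Mean Col3a1 was 308 ± 36.9 CPM in ozone-dam males and 304 ± 51.2 in air-dam males, then 239 ± 26.1 in air-dam females and 233 ± 56.0 in ozone-dam females (SD, n = 6 each). As for Col1a1, same-sex neighbours differed by less than their SD and the step between the sexes exceeded the SD of both neighbouring groups.

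Averaged over dam groups, Col3a1 was higher in males by a log2 fold change of 0.38 ± 0.09 SE (edgeR adjusted p = 0.00202), or 1.30-fold with a 95% interval from 1.14 to 1.49. The difference was 0.35 ± 0.13 with air-exposed dams (adjusted p = 0.0299, called) and 0.41 ± 0.13 with ozone-exposed dams (adjusted p = 0.0721, not called). Without rat 66 the latter was 0.55 (adjusted p = 0.00518). The call with air-exposed dams was lost without rat 37, 48, 15, 16 or 23 (adjusted p from 0.0533 to 0.0964) and with library totals only (0.29, adjusted p = 0.0735). The averaged call held with any 1 library left out (adjusted p from 0.000135 to 0.00458), but not within set 1 alone (0.47, adjusted p = 0.0869) or set 2 alone (0.32, adjusted p = 0.0585).

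Col1a2 encodes the other chain of type I collagen. Its counts were fractional in 24 of 24 libraries, as an estimate gives when reads are shared between features, whereas those of the other members were whole in every library. In air-dam males it ran from 17.2 CPM (rat 39) through 25.1 to 27.98 CPM (rat 43), and in ozone-dam males from 13.2 (rat 88) through 27.1 to 42.6 CPM (rat 91). The ozone group thus reached both below and above the air group.

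In females, Col1a2 ran from 16.3 CPM (rat 23) through 22.2 to 24.5 CPM (rat 15) with air-exposed dams. With ozone-exposed dams it ran from 10.3 (rat 63) through 16.2 to 26.98 CPM (rat 66). Group means were 26.02 ± 10.5 and 23.6 ± 4.63 CPM in males from ozone-exposed and air-exposed dams, and 21.3 ± 3.23 and 17.5 ± 6.33 CPM in females from air-exposed and ozone-exposed dams (SD, n = 6 each). Each step in this order was smaller than the larger SD of the neighbouring groups.

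The sex difference of Col1a2 did not pass: 0.34 ± 0.17 SE when averaged (edgeR adjusted p = 0.0932), 0.12 ± 0.23 with air-exposed dams (adjusted p = 0.696) and 0.57 ± 0.23 with ozone-exposed dams (adjusted p = 0.183). The averaged difference passed without rat 88 (0.42, adjusted p = 0.0298) and without rat 66 (0.42, adjusted p = 0.0391).

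Vim had the smallest sex difference of the members, 0.19 ± 0.13 SE averaged over dam groups (edgeR adjusted p = 0.221; 95% interval from -0.07 to 0.46). It was 0.04 ± 0.18 with air-exposed dams (adjusted p = 0.872) and 0.35 ± 0.18 with ozone-exposed dams (adjusted p = 0.306). The averaged value took opposite signs in the library sets, 0.72 in set 1 alone (adjusted p = 0.0156) and -0.17 in set 2 alone (adjusted p = 0.342). Taken over all genes, a sex difference was common. The averaged test called 45.6% of 12854 genes, with 22.5% of the tested genes called higher in males, against 2 of the 4 members, both higher in males. With 4 members, that count is not far from the share over all genes. With air-exposed dams 51.5% of genes were called, 25.5% of the tested genes in the direction of males, against 1 member, and with ozone-exposed dams 5.76%, against none of the members. With ozone-exposed dams 3 members (Col1a1, Col1a2 and Col3a1) had an unadjusted edgeR p under 0.05, as did 18.3% of all genes. The same 3 members did in the averaged test, as did 53.2% of all genes. With air-exposed dams 2 members (Col1a1 and Col3a1) did, as did 57.2% of all genes. With signs kept, the median averaged difference was 0.36 over the 4 members, all higher in males, and 0.01 over all genes tested. With signs dropped, the median over all genes was 0.273. The averaged difference of Col1a1 was exceeded in absolute size by 8.18% of genes and that of Col3a1 by 35.6%. For Col1a2 the share was 39.97% and for Vim 63.1%.

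**Figure D2:**
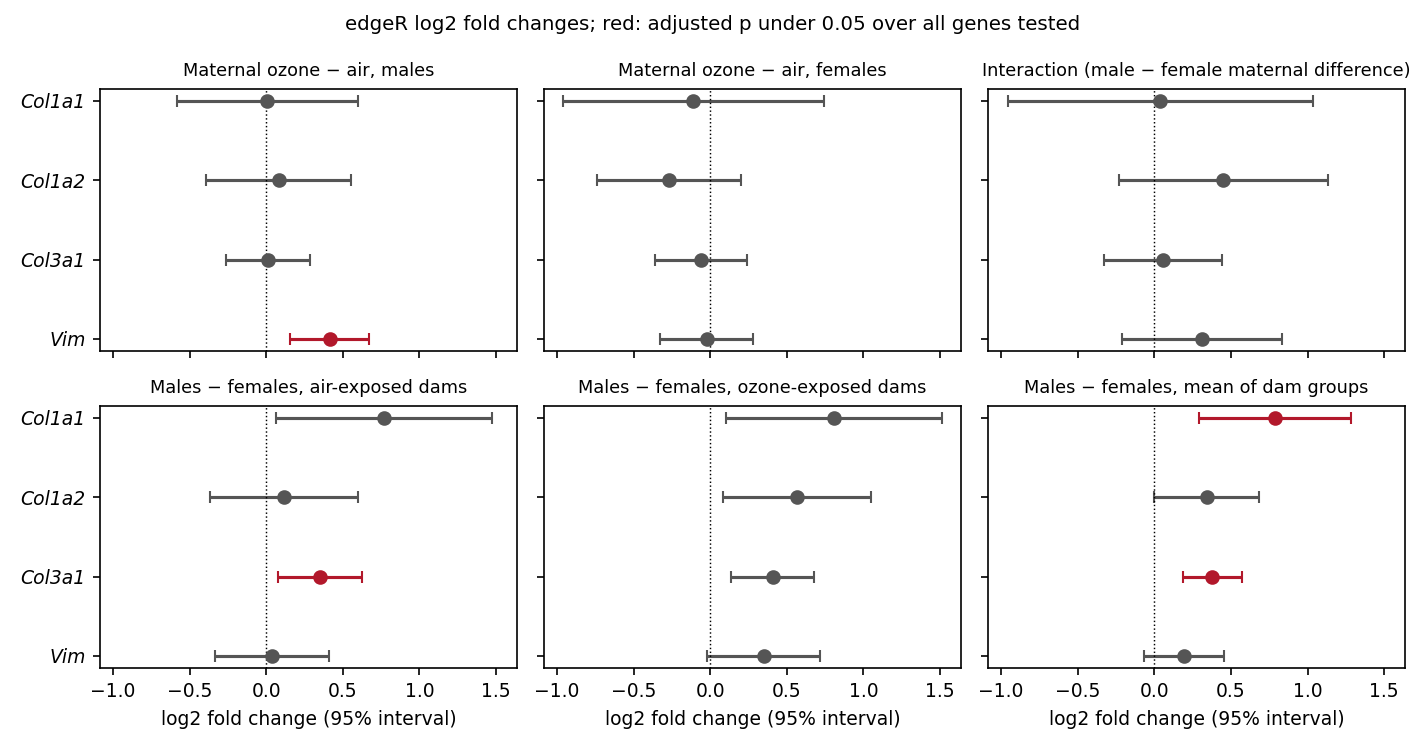
edgeR log2 fold changes (points) with 95% intervals (bars) of the 4 genes in each comparison, on 1 shared axis. Red points passed an adjusted p of 0.05 over all genes tested: Vim for maternal ozone in males, Col3a1 for sex with air-exposed dams, and Col1a1 and Col3a1 for the averaged sex difference.

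The maternal comparison asks whether ozone breathed by the dam in early gestation altered these transcripts in the livers of ozone-exposed offspring. In males 1 of the 4 members was called, where the test called 21.3% of 12541 genes, with 10.3% of the tested genes called higher. A count of 1 in 4 is close to that background. In females none of the members was called by edgeR, where 0.271% of 12538 genes were called. None had an unadjusted edgeR p under 0.05 either, as 2001 genes (16.0%) did. DESeq2 and limma-voom also called no member in females, where they called 332 and 39 genes.

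In males the collagen differences (ozone minus air) were small. Col1a1 had a log2 fold change of 0.01 ± 0.27 SE (edgeR adjusted p = 0.986), with a 95% interval from 0.67-fold to 1.51-fold. Col3a1 had 0.01 ± 0.13 (adjusted p = 0.960), with an interval from 0.83-fold to 1.22-fold. Col1a2 had 0.08 ± 0.22 (adjusted p = 0.829), with an interval from 0.76-fold to 1.47-fold. The interval of Col3a1 was the narrowest of the 3.

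In females the maternal differences were -0.11 ± 0.39 SE for Col1a1 (edgeR adjusted p = 0.914), -0.27 ± 0.22 for Col1a2 (adjusted p = 0.578) and -0.06 ± 0.14 for Col3a1 (adjusted p = 0.859). The corresponding 95% intervals ran from 0.51-fold to 1.67-fold, from 0.60-fold to 1.15-fold and from 0.78-fold to 1.18-fold. The Col1a2 value was -0.73 in library set 1 alone and 0.05 in set 2 alone, and ran from -0.41 to -0.08 with 1 female left out at a time. For Col1a2, 3 of the 6 ozone-dam females lay below every female from air-exposed dams, while rat 66 lay above them all. For Col3a1 the same count was 3 below and 1 above.

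Vim in males ran from 25.7 CPM (rat 41) through 31.8 to 42.8 CPM (rat 37) with air-exposed dams. With ozone-exposed dams it ran from 31.0 (rat 87) through 39.0 to 61.1 CPM (rat 96). The groups overlapped: 2 of 6 ozone-dam animals lay above every animal from air-exposed dams, and 3 of 6 from air-exposed dams lay below every animal from ozone-exposed dams. The means were 41.3 ± 11.1 and 32.5 ± 6.20 CPM (SD, n = 6 each), a step smaller than the larger SD.

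With the library set as a term, the maternal difference of Vim in males was 0.42 ± 0.12 SE on the log2 scale (edgeR adjusted p = 0.0251), that is, 1.33-fold with a 95% interval from 1.11 to 1.59. Without that term it was 0.34 ± 0.16 (adjusted p = 0.156). An exact permutation test of log2 CPM, which takes no account of the set, gave a difference of 0.32 (p = 0.108, adjusted 0.684 over 8 tests). With all 24 libraries in 1 fit it was 0.35 and no longer called (adjusted p = 0.169). The call was also lost without rat 39, 41, 43, 48, 91 or 96, with adjusted p between 0.0521 and 0.0925, while the difference stayed between 0.33 and 0.49 with any 1 male left out. Within set 1 alone the difference was 0.46 (3 against 2 animals, adjusted p = 0.179) and within set 2 alone 0.40 (3 against 4 animals, adjusted p = 0.208). Apart from leaving out single libraries, 7 of 11 other settings kept the call and 4 lost it. It held with DESeq2 (0.42, adjusted p = 0.0115) and with limma-voom (0.40, adjusted p = 0.0281). In edgeR it held with RLE scaling (adjusted p = 0.0245), library totals only (adjusted p = 0.0329) and no filter (adjusted p = 0.0354).

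In females Vim ran from 23.1 CPM (rat 18) through 29.4 to 43.0 CPM (rat 17) with air-exposed dams and from 23.3 (rat 63) through 31.8 to 41.6 CPM (rat 69) with ozone-exposed dams. The means were 31.5 ± 7.96 and 32.3 ± 6.67 CPM (SD, n = 6 each). The ranges of the female groups nearly coincided, and the difference was -0.02 ± 0.14 SE (edgeR adjusted p = 0.954), with a 95% interval from 0.80-fold to 1.22-fold.

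The interaction tests whether the maternal difference differs between the sexes, with values given as males minus females. None of the 4 members passed it in edgeR, where 23.3% of 12854 genes were called. None had an unadjusted edgeR p under 0.05 either, as 36.5% of genes did. The differences of differences were 0.04 ± 0.48 for Col1a1 (adjusted p = 0.960), 0.45 ± 0.33 for Col1a2 (adjusted p = 0.341), 0.06 ± 0.19 for Col3a1 (adjusted p = 0.854) and 0.31 ± 0.25 for Vim (adjusted p = 0.394). With a library set term for each sex, added after seeing the data, the value for Vim was 0.45 ± 0.19 (adjusted p = 0.0902). A rise of Vim confined to males was therefore not shown.

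Vim levels also lay apart between the library sets, in opposite directions in males and females, though not past the threshold over all genes. In males it averaged 43.0 ± 10.9 CPM in set 1 (SD, n = 5) and 32.6 ± 6.37 CPM in set 2 (SD, n = 7). In females it averaged 26.8 ± 3.33 CPM in set 1 (SD, n = 5) and 35.6 ± 6.71 CPM in set 2 (SD, n = 7). Set 1 minus set 2, adjusted for the dam's exposure, was 0.47 ± 0.12 SE in males (edgeR unadjusted p = 0.00164, adjusted p = 0.542) and -0.41 ± 0.15 in females (unadjusted p = 0.0125, adjusted p = 0.9996). After adjustment over all genes neither passed, as 0% of genes did in either sex, with 1128 and 237 genes at an unadjusted edgeR p under 0.05. Ozone-exposed dams account for 2 of 5 male libraries in set 1 and 4 of 7 in set 2. The maternal difference of Vim in males is given above with and without the set term, and how much of it belongs to the set was not tested.

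**Figure D3:**
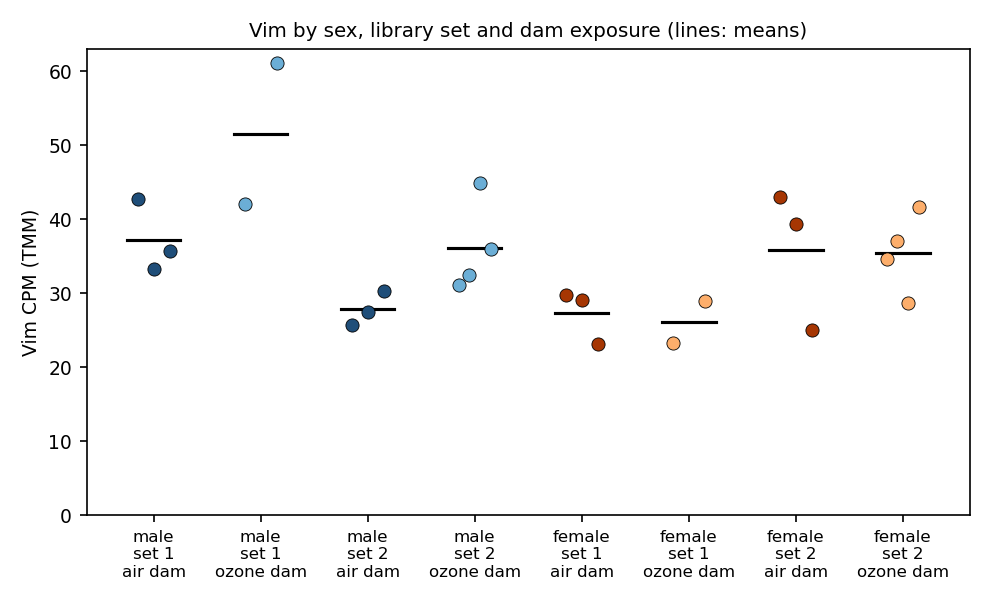
Vim in every library, in CPM (linear axis from 0), split by sex, library set and the dam's exposure, with the mean of each subset as a line. In males both sets have a higher mean with ozone-exposed dams (51.6 against 37.2 CPM in set 1, 36.1 against 27.8 in set 2), and in females the means lie close together (26.1 against 27.3 in set 1, 35.5 against 35.8 in set 2).

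Col1a1 also changed sides between the sets in males. The difference in mean log2 CPM between ozone-exposed and air-exposed dams was -0.46 in set 1 and 0.41 in set 2. For Col3a1 in males the 2 values were -0.10 and 0.10. Each of these values rests on 2 to 4 animals per exposure, and a difference between the sets in the maternal effect was not tested. In females the same difference for Col1a2 was -0.79 in set 1 and -0.03 in set 2.

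Animals of the same group varied more in the type I collagen chains than in most genes. The pooled SD within groups was 0.63 log2 units for Col1a1, larger than that of 96.6% of 9341 genes with a mean count of at least 50. It was 0.44 for Col1a2 (larger than 91.1% of genes), 0.32 for Vim (75.0%) and 0.23 for Col3a1 (42.5%), where the median gene had 0.25. Counting error alone would give 0.10 for Col1a1, 0.10 for Col1a2, 0.07 for Vim and 0.03 for Col3a1, all smaller than the spread observed. The highest Col1a1 library had 10.5 times the CPM of the lowest, against 4.13 for Col1a2, 2.64 for Vim and 1.89 for Col3a1.

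The levels of the collagens were positively correlated over the 24 libraries. These pooled values and their permutation p-values shuffle animals across the sexes, so they include the sex differences of Col1a1 and Col3a1, and no difference between correlations was tested. Over the 24 libraries, log2 CPM of Col1a1 and Col3a1 had a Pearson r of 0.70 (permutation p = 3e-05, adjusted 0.00018 over 6 relations) and a Spearman rho of 0.81 (permutation p = 1e-05, the smallest that 100000 draws give, adjusted 6e-05). Without the 2 animals farthest from the median of Col1a1, rats 18 and 63, r was 0.80. It was 0.73 in the 12 males, 0.40 in the 12 females, 0.64 in library set 1 and 0.86 in set 2.

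Col1a2 with Col3a1 had r = 0.65 (permutation p = 0.00067, adjusted 0.00201) and rho = 0.69 (permutation p = 0.00032, adjusted 0.00096). The value was 0.51 in males, 0.65 in females, 0.40 in set 1, 0.81 in set 2 and 0.56 without rats 63 and 91. The 2 chains of type I collagen, Col1a1 and Col1a2, had r = 0.57 (permutation p = 0.00366, adjusted 0.00732) and rho = 0.59 (permutation p = 0.00319, adjusted 0.00638). That value was 0.37 in males, 0.58 in females, 0.53 in set 1, 0.71 in set 2 and 0.56 without rats 18 and 63. In air-dam females none of the 3 collagen pairs had a positive r (from -0.11 to -0.04, n = 6). In ozone-dam females all 3 did (from 0.62 to 0.87, n = 6). There rat 66 was the highest for all 3 collagens and rat 63 the lowest for Col1a1 and Col1a2. All 3 pairs were also positive in air-dam males (from 0.20 to 0.78, n = 6) and in ozone-dam males (from 0.61 to 0.82, n = 6). Differences between these groups were not tested.

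Vim, the intermediate filament gene, was set against each collagen in the same way. With Col1a1 Vim had r = 0.54 (permutation p = 0.00729, adjusted 0.0109) and rho = 0.52 (permutation p = 0.0107, adjusted 0.0160). Without rats 18 and 63, whose removal also narrows the range of Col1a1, r was 0.31, and this fall was not tested. The value of r was 0.17 in males, 0.70 in females, 0.65 in set 1 and 0.32 in set 2. With Col3a1 it had r = 0.43 (permutation p = 0.0332, adjusted 0.0399; rho = 0.47, permutation p = 0.0229, adjusted 0.0275), with 0.43 left without rats 37 and 65, 0.23 in males, 0.43 in females, 0.66 in set 1 and 0.17 in set 2. With Col1a2 it had r = 0.29 (permutation p = 0.165, adjusted 0.165; rho = 0.21, permutation p = 0.330, adjusted 0.330), with 0.04 left without rats 63 and 91, 0.07 in males, 0.37 in females, 0.35 in set 1 and 0.27 in set 2. All 6 relations share the library totals and scaling factors of the same libraries.

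**Figure D4:**
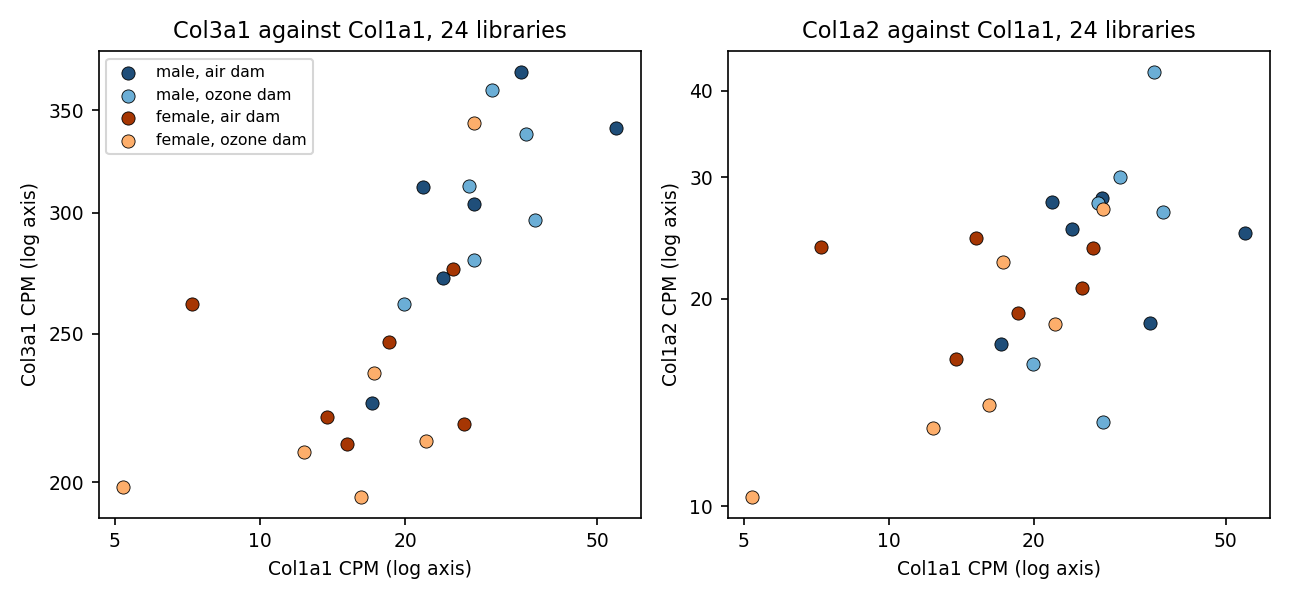
CPM of Col3a1 (left) and Col1a2 (right) against Col1a1 in the 24 libraries, on log axes, coloured by group. Over all 24 libraries r was 0.70 for Col3a1 and 0.57 for Col1a2, against 0.40 and 0.58 in the 12 females, and the lowest Col1a1 libraries are from females (rats 63 and 18).

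Among 9340 other genes with a mean count of at least 50, the other members were ranked by Pearson r of log2 CPM over the 24 libraries. For Col1a2, Col3a1 had rank 4, Col1a1 rank 17 and Vim rank 640. For Col1a1, Col3a1 had rank 20, Col1a2 rank 193 and Vim rank 294. For Col3a1, Col1a1 had rank 36, Col1a2 rank 92 and Vim rank 942. For Vim the highest-ranked member was Col1a1, at rank 55, followed by Col3a1 at rank 215 and Col1a2 at rank 781. The gene most like Col3a1 was ENSRNOG00000003120 (r = 0.90) and the one most like Col1a1 was ENSRNOG00000050539 (r = 0.84), neither of which has a name here. These ranks include the difference between the sexes and carry no test.

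The balance between the chains of type I collagen, a ratio within each library that needs no scaling, varied widely. Col1a1 counts divided by Col1a2 counts ran from 0.304 (rat 18) to 2.20 (rat 48), with a median of 0.993. By group the medians were 0.993 and 1.12 in males from air-exposed and ozone-exposed dams, and 0.909 and 0.991 in females from air-exposed and ozone-exposed dams. Only rats 37, 48 and 88, all males, stood well above the rest (1.89, 2.20 and 2.10), and the lowest values after rat 18 were those of rats 63 and 15, both females (0.504 and 0.621). The ratio of counts is not a ratio of molecules, as gene length is not corrected and the counts of Col1a2 are fractional estimates.

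The 3 collagen genes together held 0.0351% ± 0.0065 of all counts in air-dam males, 0.0362% ± 0.0062 in ozone-dam males, 0.0284% ± 0.0023 in air-dam females and 0.0269% ± 0.0060 in ozone-dam females (SD, n = 6 each). Most of this share is Col3a1, so it follows that gene. Vim counts divided by the collagen counts ran from 0.0738 (rat 87) to 0.166 (rat 96), and both extremes are ozone-dam males. In those males the median ratio was 0.105, against 0.0843 in air-dam males, 0.113 in air-dam females and 0.118 in ozone-dam females.

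**Figure D5:**
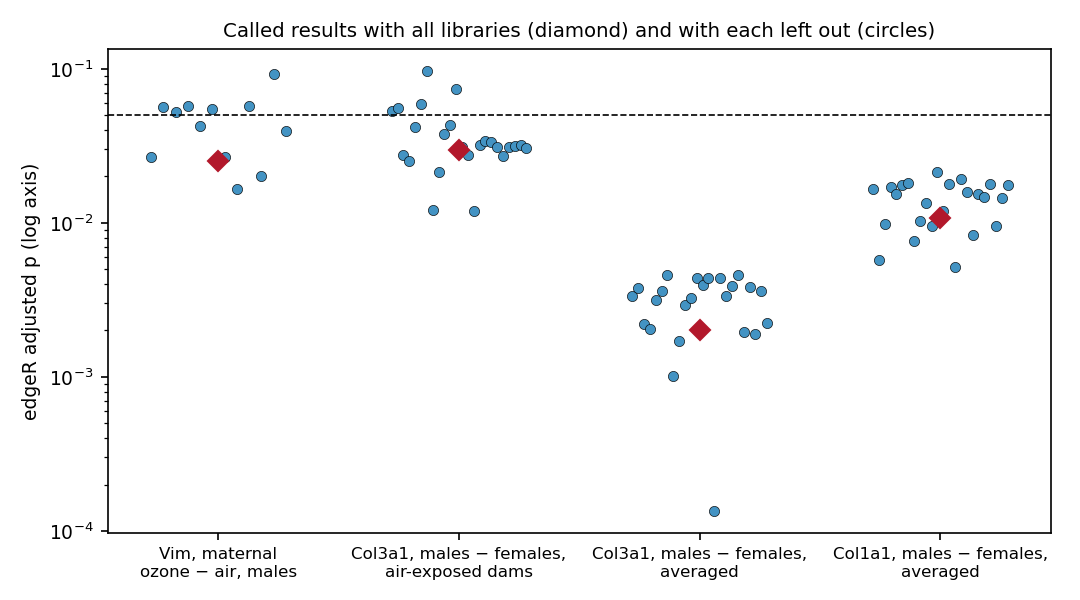
edgeR adjusted p (log axis) of the 4 called results with all libraries (diamonds) and with each library left out in turn (circles: 12 for Vim, 24 for the others). The dashed line is 0.05: 6 of 12 circles lie above it for Vim and 5 of 24 for Col3a1 with air-exposed dams, and none for the averaged sex differences of Col3a1 and Col1a1.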

How the data were processed

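The authors deposited an expected count (an estimated count, often fractional) for each Ensembl gene ID and library, in 1 table per sex. No scaling by depth or length was applied, as the file headers and values show. Partek, STAR 2.6.1d, the build rn6 and DESeq2 appear in the submitters' processing notes, which assign them no role, and the sources used here do not give the annotation, the strand setting or the filters. RNA with a RIN above 7 was polyA-selected, per the labels' protocols. Another 23 library columns, which could be tied to no sample of the 24, were left out.

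Rounded counts went into edgeR 4.0.16 (R 4.3.3), with its robust quasi-likelihood test after TMM scaling, with the library set as a covariate. Genes passed filterByExpr (at least 10 counts in enough libraries, 15 in total). Each sex was fitted alone for the maternal difference, and all 24 libraries together for the interaction and the sex differences. P-values were adjusted by Benjamini-Hochberg over all genes tested, and called means an adjusted p under 0.05. Each SE is the fold change divided by the root of its F statistic, and the 95% intervals follow from it. Log2 CPM used a prior count of 2. Exact permutation tests ran over 924 arrangements. All tests are two-sided. Their p-values set each result against the variation among these animals, which the labels do not tie to separate litters. The fits were tested on simulated counts that held no effect of library set or litter, so that test does not bear on either. Replicate pairs differed by a chi-square per gene of 17.2 to 91.8, so none was taken for 1 library. Limits of 3 counts cover counting error only.

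All 4 members are named with their values, and likeness was ranked by Pearson r among genes with a mean count of 50 or more. The pathway and marker lists could not be matched to IDs and were not tested. The members, lists and alternatives were chosen with earlier results of these data known. The alternatives were DESeq2 1.42.0, limma-voom (limma 3.58.1), RLE scaling, unscaled library totals, looser and stricter count filters, leaving the set out of the model, fitting each set or all libraries at once, a prior count of 0.5, and leaving out single libraries. The averaged sex difference and the set term for each sex were added after seeing the data.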

Additional observations from a re-analysis of the deposited data

Results flagged for a closer look

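In groups of 6, the gap of the highest or lowest animal to its nearest neighbour was divided by the range and compared with Dixon's 95% critical value of 0.625. Of 36 group values checked (CPM of the members, library totals, shares and ratios), 4 had an animal far from the others. Chance flags about 1 in 20 groups. Col3a1 in rat 66 (female, ozone-exposed dam) stood at 343 CPM, with the next female of that group at 236 CPM. In the same rat the 3 collagens held 0.0390% of all counts, against 0.0268% in the next. That animal also had the highest Col1a1 and Col1a2 of all females. The library of rat 72 (female, ozone-exposed dam) held 36232100 counts, against 12094600 in the next of its group, and its 4 gene levels lay inside the range of that group. In rat 37 (male, air-exposed dam) Col3a1 had 20.1 counts per count of Col1a2, with the next male of that group at 13.7.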

How the results depend on the processing

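No paired analysis was possible because the replicate numbers only count animals within a group and the labels pair no animals. Of 716 member results under other settings, 633 kept direction and side of the threshold, and none both changed sign and was called. Unless a value shows it, the cause of a change was not tested. With DESeq2 the females gave 332 calls, Col1a1 passed for sex with air-exposed dams (0.77) and Col3a1 with ozone-exposed dams (0.41). With library totals only, the sex differences with air-exposed dams were 0.29 for Col3a1, no longer called, and -0.0218 for Vim. Without the filter Col1a1 in males was -0.00018. Without the set term the maternal values were -0.0161 for Col1a1 and 0.34 for Vim in males and 0.0470 for Vim in females, where 66 genes were called. In set 1 alone, with fewer animals, calls numbered 861 for the maternal difference in males, 9 in females, 432 for the interaction, 3404 and 71 for sex with air-exposed and ozone-exposed dams, and 899 averaged. There the maternal values in males were -0.61 for Col1a1, -0.14 for Col3a1 and 0.46 for Vim, and the Col1a1 interaction was -0.39. Sex differences in set 1 were -0.24 for Col1a2 and 0.45 for Col3a1 with air-exposed dams, and averaged 0.94 for Col1a1, 0.47 for Col3a1 and 0.72 for Vim (called, adjusted p = 0.0156). In set 2 alone calls numbered 121 in males, 0 in females by edgeR, 450 for the interaction and 412 for sex with ozone-exposed dams. There Vim in males was 0.40, and the female maternal values were 0.0473 for Col1a2, 0.0046 for Col3a1 and 0.0016 for Vim. Sex differences in set 2 were 0.26 for Col3a1 and -0.36 for Vim with air-exposed dams, 0.83 for Col1a1 with ozone-exposed dams (called), and averaged 0.32 for Col3a1 and -0.17 for Vim. With all 24 libraries in 1 fit the maternal values in males were -0.0511 for Col1a1, -0.0026 for Col3a1 and 0.35 for Vim, no longer called, and 0.0414 for Vim in females, where 1 gene was called. With a set term for each sex 0 genes were called in females by edgeR. With each library left out in turn, values ranged as follows. The maternal difference in males ran from -0.11 to 0.20 for Col1a1, from -0.0733 to 0.21 for Col1a2, from -0.0500 to 0.0832 for Col3a1, from 1684 to 3740 in genes called and from 0.33 to 0.49 for Vim. The maternal difference in females ran from -0.44 to 0.12 for Col1a1, from 0 to 135 in genes called and from -0.13 to 0.0504 for Vim. The interaction ran from -0.16 to 0.32 for Col1a1 and from -0.0111 to 0.20 for Col3a1. The sex difference with air-exposed dams ran from 0.48 to 0.97 for Col1a1, from 0.27 to 0.42 for Col3a1 and from -0.0495 to 0.15 for Vim. The sex difference with ozone-exposed dams ran from 0.36 to 0.55 for Col3a1. The averaged sex difference ran from 0.26 to 0.42 for Col1a2. Counting error alone would give an SD of 0.03 to 0.10 log2 units for the 4 members.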
